A study of Mus musculus with 8 samples.

Results

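Ezh2 and G9a ChIP-seq peaks were examined at 7 gene loci of the pluripotency network of mouse embryonic stem cells, Pou5f1, Nanog, Dppa3, Sox2, Klf4, Esrrb and Zfp42. The members were all peaks that overlapped 1 of 7 fixed windows of the mm9 genome by at least 1 bp, which gave 161 of the 174428 peaks in 5 deposited lists. Of these, 1 of 5425 came from the wild-type Ezh2 library numbered 0, 11 of 11766 from the wild-type Ezh2 library numbered 1, and 2 of 6198 from Ezh2 in the knockout. A further 68 of 67318 came from wild-type G9a and 79 of 83721 from rescue G9a. The windows were 35.62 to 35.67 Mb of chromosome 17 for Pou5f1, 122.64 to 122.69 Mb of chromosome 6 for Nanog and 122.56 to 122.60 Mb of chromosome 6 for Dppa3. They were 34.52 to 34.58 Mb of chromosome 3 for Sox2, 55.52 to 55.57 Mb of chromosome 4 for Klf4, 87.68 to 87.88 Mb of chromosome 12 for Esrrb and 44.36 to 44.41 Mb of chromosome 8 for Zfp42.

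All cells were of TT2, a mouse embryonic stem cell line from a cross of C57BL/6 and CBA, grown with LIF, the cytokine that holds such cells undifferentiated. The Ezh2 groups were wild-type TT2 (2 libraries, numbered 0 and 1) and G9a-/- GLP-/- cells (1 library, numbered 0). The G9a groups were wild-type TT2 (1 library, numbered 1) and G9a-/- GLP-/- cells rescued with G9a-wt (1 library, numbered 1). By their label the rescued cells still lacked GLP. The knockout Ezh2 library thus shares its number with wild-type library 0, and a comparison of it with library 1 also crosses the number. The genotype of the knockout Ezh2 library was taken from its title, since its source name gives the line alone. The series' design text says that the wild-type inputs were pooled as the control for Ezh2 and G9a; whether that covers the knockout and rescue lists is not stated. The promoter and level of the rescue G9a and the number of clones are not given in the sources used here, and no G9a list from knockout cells was analysed here, so how many G9a calls would remain without G9a is unknown. Nothing says that the libraries came from separate cultures. Peak lists hold no expression values and no read counts: neither the knockout nor the cell type could be checked from them, and depth is unknown. With 1 library in each group except wild-type Ezh2, no test between conditions was possible, and counts are descriptions of these lists.

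Oct4 (from Pou5f1), Sox2 and Nanog are transcription factors that bind one another's regulatory regions and keep the pluripotent state, with Klf4 and Esrrb as partners that reinforce it. Zfp42 and Dppa3 are downstream genes, active in naive pluripotent cells and shut down as the cells leave that state. Ezh2 is the enzyme of Polycomb repressive complex 2. That complex methylates H3K27 and typically occupies CpG-rich promoters of developmental genes that are silent in stem cells. G9a and GLP are partner enzymes that methylate H3K9, and G9a is known for silencing Pou5f1 when stem cells differentiate.

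The bases before the annotated starts of the genes differ in CpG content, the feature that Polycomb sites are known for, and in the octamer core, the letters that Oct4 is known to read. RefSeq promoter sequences of GRCm38.p6 were found for 6 of the 7 genes, and Dppa3 had no entry. Each is the 250 bases before the start. Shown are the 3 genes whose first listed start holds the octamer core, ATGCAAA on either strand, in capitals (TTTGCAT is its reverse complement), and Klf4 as the gene with the most CpG.
Nanog: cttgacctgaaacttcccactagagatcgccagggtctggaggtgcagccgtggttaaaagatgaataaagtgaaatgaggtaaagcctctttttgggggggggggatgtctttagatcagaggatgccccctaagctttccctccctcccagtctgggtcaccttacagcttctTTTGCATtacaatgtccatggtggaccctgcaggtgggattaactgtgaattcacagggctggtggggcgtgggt
Sox2: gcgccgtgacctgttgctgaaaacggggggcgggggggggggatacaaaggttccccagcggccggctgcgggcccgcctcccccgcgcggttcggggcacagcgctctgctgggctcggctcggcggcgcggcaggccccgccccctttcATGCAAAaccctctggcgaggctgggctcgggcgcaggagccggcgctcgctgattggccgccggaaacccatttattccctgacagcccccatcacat
Zfp42: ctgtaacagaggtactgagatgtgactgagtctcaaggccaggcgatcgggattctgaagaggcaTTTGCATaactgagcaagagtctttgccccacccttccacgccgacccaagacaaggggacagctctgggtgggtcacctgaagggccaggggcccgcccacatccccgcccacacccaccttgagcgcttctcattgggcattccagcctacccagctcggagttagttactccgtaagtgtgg
Klf4: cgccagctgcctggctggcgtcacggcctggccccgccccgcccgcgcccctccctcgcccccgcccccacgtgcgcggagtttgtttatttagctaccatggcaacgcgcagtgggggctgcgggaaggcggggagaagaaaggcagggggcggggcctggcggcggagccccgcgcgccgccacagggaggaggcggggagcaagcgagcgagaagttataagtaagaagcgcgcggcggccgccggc
These lie at chr6:122707239-122707488 on the plus strand for Nanog, chr3:34649745-34649994 on the plus strand for Sox2, chr8:43307010-43307259 on the minus strand for Zfp42 and chr4:55532476-55532725 on the minus strand for Klf4. The coordinates are of GRCm38.p6 and not of mm9, so which of these bases lie under a peak was not determined. The octamer core began 75 bases before the start in Nanog, 99 before it in Sox2 and 185 before it in Zfp42. It was in 4.12% of the 32851 promoters of the same length, and the Pou5f1, Klf4 and Esrrb windows did not hold these letters. Klf4 held 32 CpG and Sox2 27, against a median of 6 over all promoters. Zfp42 held 9, the Pou5f1 starts 8 and 6, the Esrrb starts 6 and 3, and the Nanog starts 3 and 2. The GC box GGGCGG, on either strand, matched 4 times in Klf4, 2 times in Sox2 and in Zfp42 and 1 time in the first Pou5f1 window, and 32.7% of all promoters hold it.

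Ezh2 library 0 had a peak at 1 of 7 loci (Esrrb), library 1 at 3 of 7 (Dppa3, Sox2 and Esrrb) and the knockout library at 1 of 7 (Esrrb). Pou5f1, Nanog, Klf4 and Zfp42 had none in any of the 3 Ezh2 lists. In 50 kb tiles of chromosomes 1 to 19 and X, 4.70% held a peak of library 0, 12.9% of library 1 and 6.09% of the knockout. In 200 kb tiles, the length of the Esrrb window, the shares were 16.3%, 36.6% and 19.5%. Added over tiles of each window's own length, such shares come to 0.444, 1.14 and 0.559 of 7 windows, so the loci had no fewer Ezh2 calls than tiles in general. Tiles cover gene-poor sequence as well, and were not matched to genes. The count of loci with a wild-type peak rests on library 1: without it 1 locus is left. By contrast, the HoxA, HoxB and HoxD clusters, textbook Polycomb targets taken as a reference with their result known, were covered by Ezh2 peaks over 51.3% to 62.5% of their length in library 0, 97.3% to 98.0% in library 1 and 36.3% to 59.4% in the knockout.

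**Figure D1:**
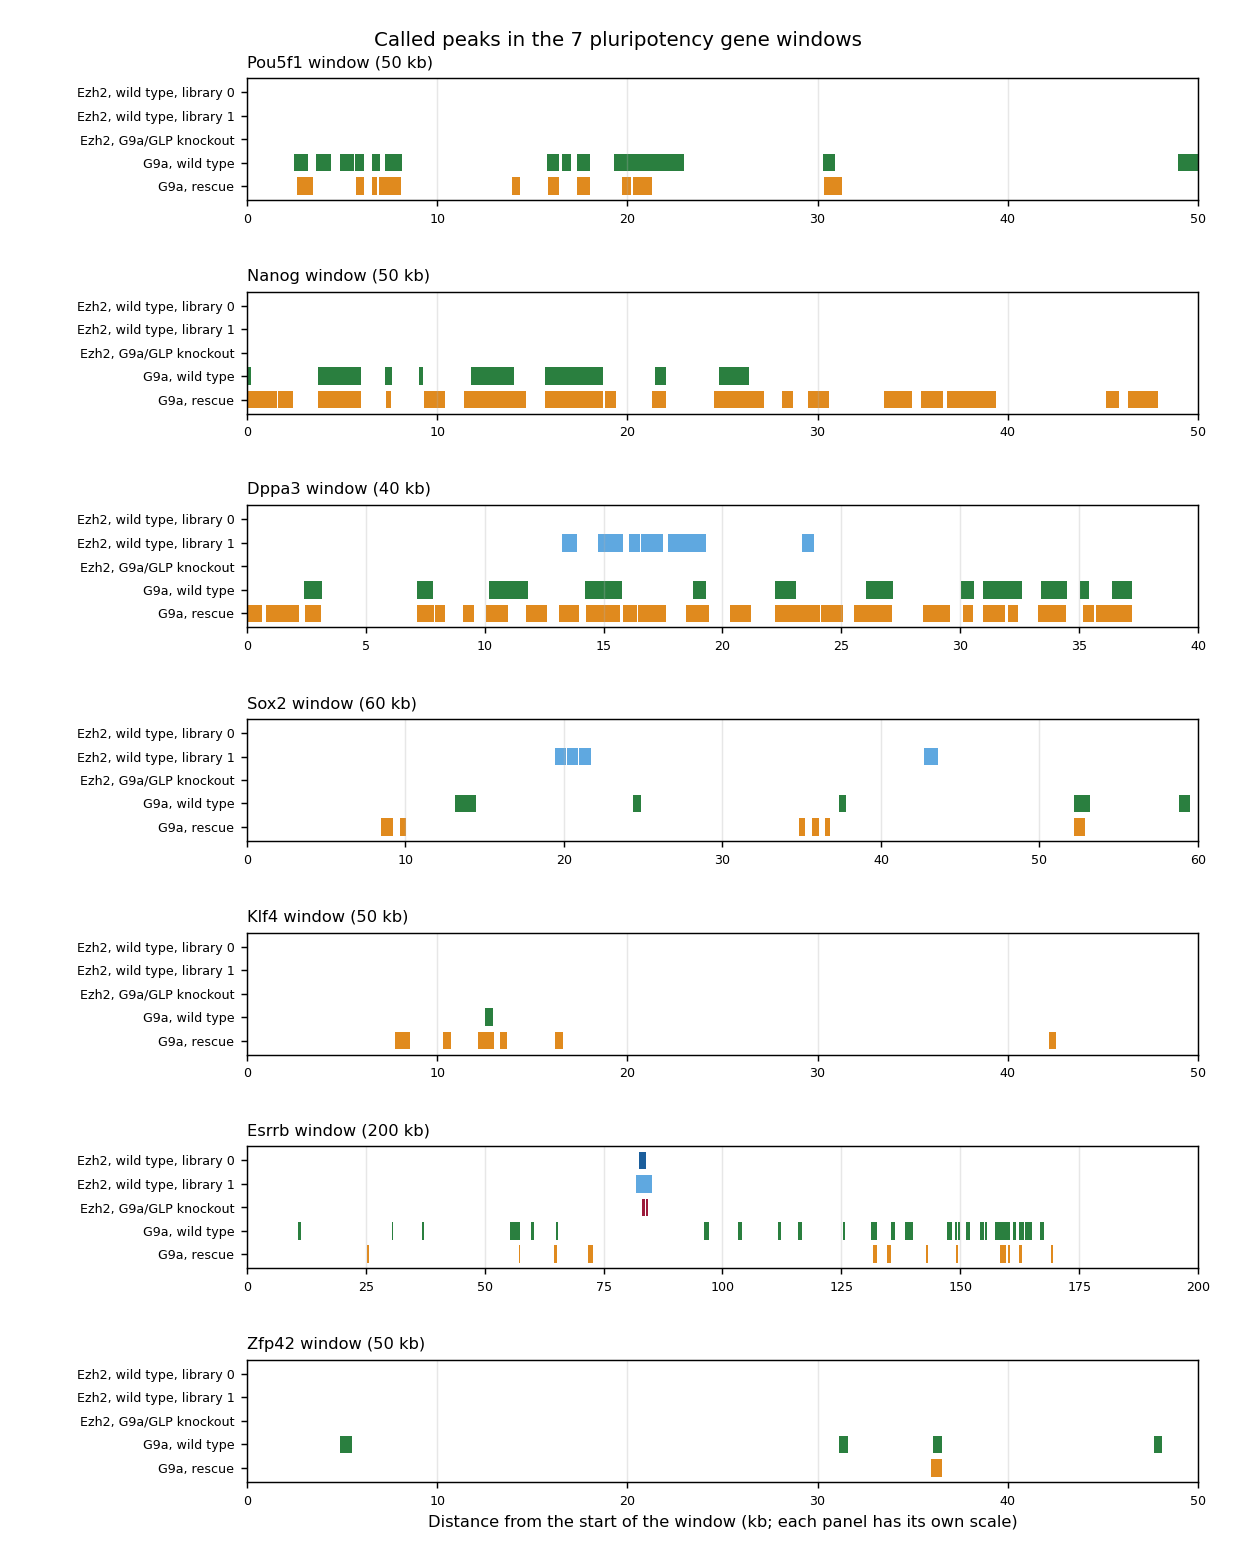
Called peaks of the 5 lists in each window, drawn as blocks along the distance from the window's start in kb, 1 panel a locus and 1 row a list; panels differ in scale. G9a peaks of both lists lie in all 7 windows, while Ezh2 peaks lie in the Esrrb window in all 3 Ezh2 lists and in the Dppa3 and Sox2 windows in library 1 alone.

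Esrrb, which encodes an orphan nuclear receptor, was the locus with a peak in all 5 lists. Its Ezh2 site was 1 peak in library 0, chr12:87762445-87763970 with a score of 528.16, and 1 peak in library 1, chr12:87761904-87765149 with a score of 1334.17. Scores are the authors' peak-caller values, 10 times the negative log10 of a peak's p, and rank peaks within 1 list. The site stood 539th of 5425 in library 0 and 762nd of 11766 in library 1, within the top 9.94% and 6.48%. In the knockout the same site was called as 2 shorter peaks, chr12:87763060-87763807 with a score of 196.87 and chr12:87763952-87764439 with a score of 65.45. Ezh2 was thus called at this site with and without G9a and GLP.

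Called peaks covered 1526 bp of the Esrrb site in library 0 and 3246 bp in library 1, against 1236 bp without G9a and GLP. Knockout length was 0.810 of library 0 and 0.381 of library 1, while library 0 was 0.470 of library 1. The difference between knockout and library 0 was smaller than that between the wild-type libraries. Over the 1653 Ezh2 regions called in library 0, library 1 and the knockout alike, the median ratios were 0.796, 0.343 and 0.464, so Esrrb lay near the middle of such regions in each. Of all 2642 regions with both wild-type libraries, 62.6% held a knockout peak. Shares by rank count single peaks of 1 list, not such regions, so they cannot be set directly against the 62.6%. Of the 542 library 0 peaks nearest to the Esrrb peak in rank, 95.2% overlapped a knockout peak. Of the 1176 such library 1 peaks, 85.5% did. No G9a peak of either list overlapped the Esrrb Ezh2 peaks.

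Dppa3, also called Stella, encodes a maternal factor that protects DNA methylation in the early embryo. Its window held 6 Ezh2 peaks of library 1 and none of library 0 or the knockout. They spanned chr6:122573263-122573874 to chr6:122583332-122583860, with scores of 30.76, 32.42, 30.01, 58.91, 183.41 and 38.42 in order of position. The fifth, chr6:122577691-122579294, was the strongest and stood in the top 25.8% of its list. Library 1 lists peaks down to a score of 30, while library 0 and the knockout stop at 43.02 and 43.03, and 4 of the 6 peaks fell below that. Absence from the other lists is common for such peaks: of the 1176 library 1 peaks nearest in rank to the strongest, 26.6% overlapped a library 0 peak and 22.1% a knockout peak. For the weakest of the 6, at the list's lower end with 597 peaks compared, the shares were 1.17% and 0.670%. Library 0 and the knockout both lacked a call here, so the knockout list did not differ from that wild-type list.

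The Dppa3 cluster was the place where Ezh2 and G9a calls met. Of its 6 Ezh2 peaks, 2 overlapped a wild-type G9a peak and 6 a rescue G9a peak. Over the whole of library 1, 14.2% of Ezh2 peaks overlapped a wild-type G9a peak and 16.2% a rescue one. The share in the surrounding chromosome 6 block, with 7.74 times the genome's density of rescue G9a peaks, was not computed. The 6 Ezh2 peaks lie close together, so they do not count as 6 separate places. The Ezh2 peak at chr6:122574773-122575807 overlapped wild-type G9a at chr6:122574208-122575790, and the strongest overlapped wild-type G9a at chr6:122578782-122579303. The first pair had scores of 32.42 for Ezh2 and 85.26 for G9a, the second 183.41 and 23.46. The lowest scores of these lists are 30 and 20. Rescue G9a covered 56.5% of the Dppa3 window and wild-type G9a 29.1%. In 40 kb tiles, 0.262% held 6 or more library 1 peaks. That share counts adjacent calls one by one: merging peaks within 1 kb took library 1 from 11 to 5 peaks over the 7 windows.

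Sox2 encodes the HMG-box factor that binds DNA together with Oct4. Library 1 had 4 Ezh2 peaks in its window, and again library 0 and the knockout had none. A run of 3 lay at chr3:34539420-34540142, chr3:34540188-34540861 and chr3:34540921-34541728, with scores of 76.09, 65.72 and 93.89. The last, chr3:34562696-34563574, had a score of 36.82. The strongest stood in the top 37.9% of its list, and none of the 4 overlapped a G9a peak. Of the library 1 peaks nearest in rank to the strongest, 7.06% overlapped a library 0 peak and 8.76% a knockout peak.

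The remaining loci differed in how far the closest Ezh2 peak lay. Pou5f1, the gene of Oct4, had one about 12 kb before its window in every list, with scores of 50.74 in library 0, 416.03 in library 1 and 62.81 in the knockout. The library 1 peak, chr17:35606099-35608069, spanned both chr17:35606941-35607216 of library 0 and chr17:35607789-35607995 of the knockout, which did not touch each other. At Klf4, a zinc finger factor of the reprogramming set, the closest peaks lay 93.977 kb after the window in library 0 and 93.799 kb in library 1, with scores of 66 and 117.36, and 1854.54 kb away in the knockout. Around Nanog, a homeobox factor, they lay 151.124 kb, 29.79 kb and 223.886 kb before the window in library 0, library 1 and the knockout. Zfp42, also called Rex1, was the most remote of the 4 in library 1, at 393.161 kb.

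G9a was called at all 7 loci in both G9a lists. Of 50 kb tiles, 47.0% held a wild-type G9a peak and 56.2% a rescue peak, and of 200 kb tiles 73.5% and 82.5%, so the presence of a peak was common and the number of peaks carried the contrast between loci. The wild-type counts were 13 at Pou5f1, 8 at Nanog, 12 at Dppa3, 5 at Sox2, 1 at Klf4, 25 in the longer Esrrb window and 4 at Zfp42. The rescue counts were 11, 18, 24, 6, 6, 13 and 1 in the same order. In raw counts, rescue exceeded wild type at Nanog, Dppa3, Sox2 and Klf4 and fell short of it at Pou5f1, Esrrb and Zfp42. The rescue list is longer, with a rescue to wild-type ratio of 1.24 over all peaks. The Sox2 ratio of 1.2 lay below that and below the 1.47 of the 10 Mb block around it. Its excess was thus in the raw count only. Klf4, with a ratio of 6, lay above the 1.29 of its block. Nanog at 2.25 and Dppa3 at 2 lay above 1.24 but below the ratio of their shared block.

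In density, Dppa3 led the wild-type list with 30 peaks per 100 kb, followed by Pou5f1 with 26, Nanog with 16 and Esrrb with 12.5. Sox2 had 8.33, Zfp42 8 and Klf4 2. As many peaks were found in 0.215% of tiles of equal length for Dppa3, 0.290% for Pou5f1, 1.37% for Esrrb and 2.26% for Nanog. The shares for Sox2 (10.5%), Zfp42 (11.9%) and Klf4 (47.0%) were larger. So 4 loci lay among the tiles densest in wild-type G9a calls, and Klf4 was like any tile with a peak. Here too, tiles cover gene-poor sequence and were not matched to genes. Among tiles of their own 10 Mb block the shares were 1% for Pou5f1, 1.6% for Dppa3, 6% for Esrrb and 7% for Nanog. In the rescue list the shares were 0.118% for Dppa3, 0.282% for Nanog, 1.08% for Pou5f1, 6.15% for Klf4, 8.48% for Sox2, 15.1% for Esrrb and 56.2% for Zfp42.

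Each window was set against the rest of the 10 Mb block of its chromosome, since peak density varied along chromosomes. In wild type, the Pou5f1 window had 26 peaks per 100 kb against 3.75 in the rest of its block, and Dppa3 30 against 4.48. Nanog had 16 against 4.52, Sox2 8.33 against 2.44, Esrrb 12.5 against 4.33 and Zfp42 8 against 4.31. Klf4, at 2 against 3.70, was the locus below its block. In the rescue all 7 windows lay above their blocks, from 6.5 against 5.52 at Esrrb to 22 against 4.16 at Pou5f1. Among block tiles of equal length, as many rescue peaks were in 2.5% for Pou5f1, 9.6% for Dppa3, 10.2% for Sox2 and 12% for Klf4. The shares for Nanog (33.5%), Esrrb (36%) and Zfp42 (41.5%, with 1 peak) were larger, so these windows were within the common range of their blocks.

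**Figure D2:**
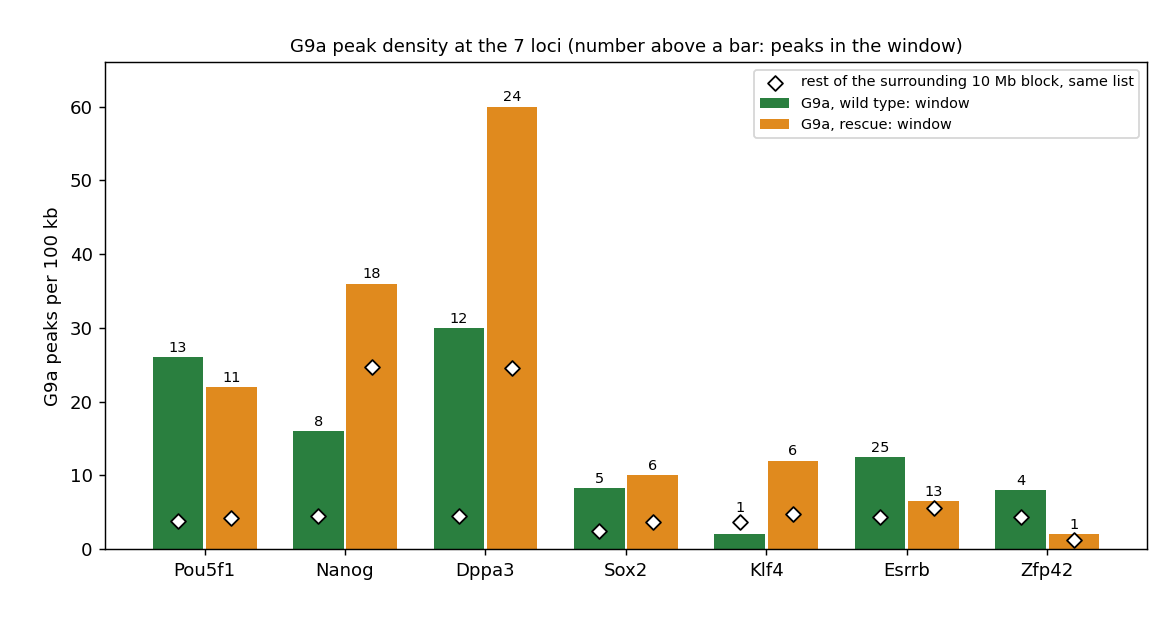
G9a peaks per 100 kb (vertical axis) in the 7 windows, as bars for wild type and rescue, with the number of peaks above each bar; diamonds give the rest of the 10 Mb block in the same list. Only wild-type Klf4 lies below its diamond, and the rescue diamonds of Nanog and Dppa3 stand at 24.7 and 24.6, far above those of the other loci.

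Nanog and Dppa3 are neighbours in the RefSeq gene order and share a block, 120 to 130 Mb of chromosome 6, in much of which the rescue list was dense. Outside the Nanog and Dppa3 windows the block had 438 wild-type and 2433 rescue G9a peaks, a ratio of 5.55, while over all peaks the rescue to wild-type ratio was 1.24. The block's density was 1.73 times that of the genome in wild type and 7.74 times in the rescue. Against it, the windows had 22.2 wild-type peaks per 100 kb, 5.03 times the 4.42 of the block, and 46.7 rescue peaks, 1.90 times the 24.6 of the block. Against the sequence within 1 Mb on each side in place of the block, the rescue ratio was 3.42. Covered bases gave 24.6% against 3.61% in wild type and 53.2% against 19.3% in the rescue. The pooled windows thus had a higher density than the rest of their block in both lists. In the rescue the pooled contrast rested more on Dppa3, with 60 peaks per 100 kb against 24.6. Nanog had 36 against 24.7, within the common range of its block.

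As a ratio to wild type, the excess of rescue peaks at Nanog and Dppa3 was smaller than that of their surroundings. Their rescue to wild-type ratio was 2.10 (42 against 20), compared with 5.55 for the rest of the block. By length the rise was not smaller: the windows, already dense in wild type, went from 22.2 to 46.7 peaks per 100 kb. The rest of the block went from 4.42 to 24.6. Among the block's tiles of equal length, 33.5% held at least as many rescue peaks as Nanog, and 9.6% as many as Dppa3. For wild-type G9a the shares were 7% and 1.6%. A gain of rescue peaks was therefore not particular to these genes. It extended over much of the block and moved with the result, and its part in the higher counts was not tested.

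**Figure D3:**
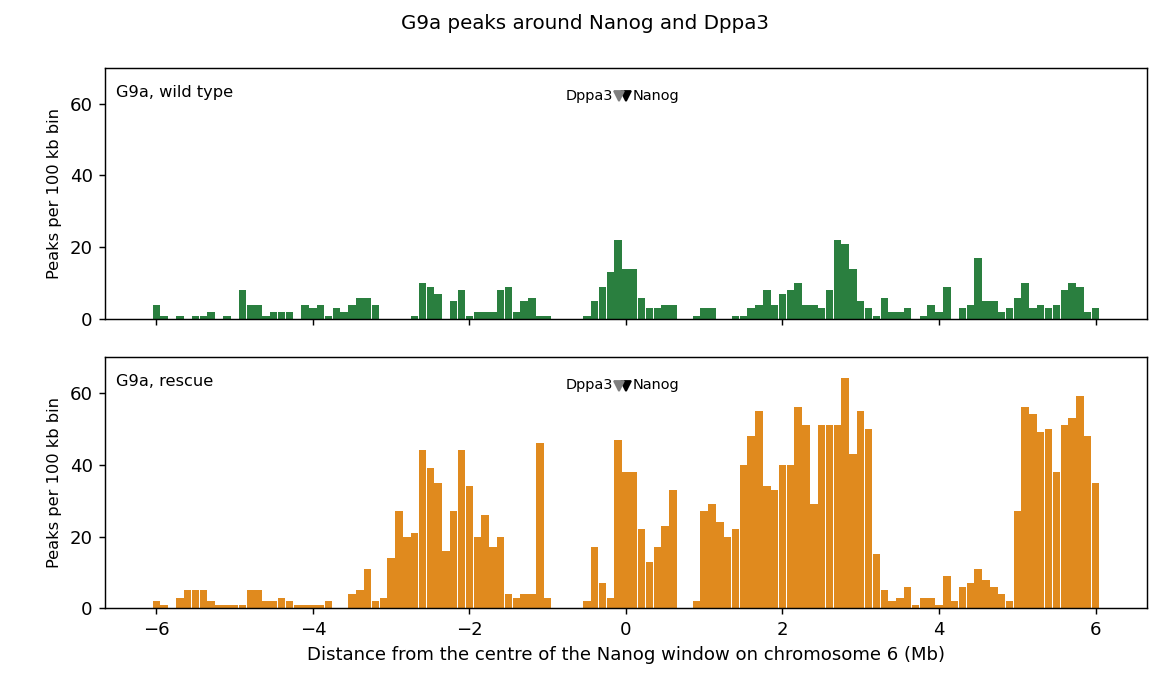
Number of G9a peaks in 100 kb bins (vertical axis) by distance in Mb from the centre of the Nanog window, wild type above and rescue below; triangles mark Nanog and Dppa3. Wild-type bins reach 22, at Dppa3 and 2.7 Mb after Nanog, while rescue bins of 20 or more lie on both sides and reach 64, with empty bins between.

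The profile was patchy. In wild type, the bin 0.1 Mb before the Nanog centre, which holds Dppa3, had 22 peaks, and the central bin had 14. The same bins had 47 and 38 rescue peaks. Bins 0.6 to 0.9 Mb before and 0.7 and 0.8 Mb after had 0 peaks in either list. Beyond them, rescue bins reached 46 at 1.1 Mb before and 64 at 2.8 Mb after, where wild type had 1 and 21.

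At the individual peaks of Nanog, 7 of 8 wild-type G9a peaks overlapped a rescue peak. The strongest wild-type peak, chr6:122643709-122646017, had a score of 428.72, in the top 0.821% of its list, and met rescue peak chr6:122643734-122646000 with a score of 281.89, in the top 0.425%. Wild-type peaks at chr6:122655683-122658696 (115.72) and chr6:122651781-122654062 (101.92) met rescue peaks with scores of 218.69 and 463.03. The latter, chr6:122651434-122654682, stood 129th of 83721 in the rescue list. The 3 highest wild-type calls at Nanog thus lay under rescue calls, and 3 wild-type peaks of low score, 35.54, 26.61 and 23.54, met rescue peaks of 305.59, 263.01 and 32.90. The other shared pair had 62.61 in wild type and 41.09 in the rescue. The 11 unshared rescue peaks had scores from 20.23 to 171.18, the highest at chr6:122673505-122674945 in the top 1.22% of the list, and 7 of them lay after the last wild-type peak.

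At Dppa3 all 12 wild-type G9a peaks overlapped a rescue peak, while 14 of 24 rescue peaks overlapped a wild-type one. The highest wild-type scores were 168.23 at chr6:122593379-122594489, 143.41 at chr6:122590939-122592598 and 85.26 at chr6:122574208-122575790. The rescue peaks there scored 44.33, then 43.24 and 41.71 for a pair, then 178.74. The rescue order differed: its highest were 178.74 at chr6:122574275-122575704, 107.53 at chr6:122595732-122597241 and 93.93 at chr6:122567152-122567876. The highest rescue call lay at the Ezh2 cluster of library 1. The remaining 9 wild-type peaks, all shared, had scores from 20.67 to 78.08, and the 10 unshared rescue peaks from 22.53 to 90.58.

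Pou5f1 kept a similar number of calls with lower standing for its main site. Of 13 wild-type G9a peaks 9 overlapped a rescue peak, and of 11 rescue peaks 10 overlapped a wild-type peak. The strongest wild-type peak, chr17:35640184-35642981, had a score of 282.16, in the top 1.90% of its list. Rescue peak chr17:35640321-35641287 at the same place had a score of 45.58, in the top 16.2%. The reverse held at chr17:35650290-35650904, with 26.81 in wild type, where rescue peak chr17:35650313-35651287 had 95.04, its highest at this locus and in the top 4.06%. Wild-type peaks of 129.78 and 109.87, in the top 7.35% and 9.38%, met rescue peaks of 47.64 and 48.90, in the top 14.9% and 14.2%. The wild-type peak of 107.40, in the top 9.69%, met rescue peaks of 22.62 and 22.50, in the top 74.3% and 75.0%. Wild-type peaks of 76.42 and 53.35 met rescue peaks of 81.78 and 46.83, and those of 35.89 and 31.40 met rescue peaks between 22.62 and 25.54. The 4 unshared wild-type peaks had scores from 26.45 to 80.99, and the unshared rescue peak 26.30.

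Sox2 and Klf4 had 5 and 1 wild-type and 6 rescue G9a peaks each. As over the whole lists, where 31.9% of wild-type and 27.2% of rescue peaks overlap, most of these did not overlap a peak of the other list. At Sox2 1 of 5 wild-type peaks overlapped a rescue peak: chr3:34572209-34573183 had a score of 98.43, and its rescue counterpart chr3:34572198-34572845 had 36.29. The other wild-type peaks had scores of 24.50, 26.56, 22.27 and 29.25, near the lowest listed score of 20. The strongest rescue peak, chr3:34528471-34529204 with 41.19, met no wild-type peak, nor did those of 26.71, 26.44, 26.19 and 21.70. At Klf4 the lone wild-type peak, chr4:55532520-55532931, had a score of 20.39 and lay inside a rescue peak, chr4:55532152-55532978, with 32.35. The strongest rescue peaks there were chr4:55530285-55530723 with 46.97 and chr4:55527802-55528566 with 38.02. No G9a peak at Klf4 reached a score of 50. Rescue peaks of 46.97, 38.02 and 32.35 stood in the top 15.3%, 23.4% and 32.8% of their list. The 3 other rescue peaks scored under 30. The ratio of 6.00 rescue peaks for each wild-type peak thus rests on 1 wild-type peak near the lowest listed score.

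Esrrb, whose window is the longest and whose wild-type density lay below those of Dppa3, Pou5f1 and Nanog, had 25 wild-type and 13 rescue G9a peaks, while its block had 449 and 554. The ratio was 0.520 in the window, 1.23 in the block and 1.45 over chromosome 12. The strongest wild-type peak, chr12:87818348-87820136 with a score of 113.32, had no rescue peak. Those of 97.82 at chr12:87842439-87843391 and 96.57 at chr12:87735335-87737371 met rescue peaks of 29.73 and 26.72. These wild-type peaks stood in the top 11.1% and 11.3% of their list, and the rescue peaks in the top 39.9% and 50.7%. The strongest rescue peak, chr12:87838468-87839692 with 88.19 (top 4.64%), met a wild-type peak of 70.41 (top 17.4%). In all, 8 of 25 wild-type peaks overlapped a rescue peak (32%), near the 38.8% of the block. In the other direction 8 of 13 rescue peaks overlapped a wild-type peak (61.5%), above the 32.7% of the block and 27.2% of all rescue peaks. The other shared wild-type peaks had scores of 38.61, 29.45, 25.61, 21.39 and 21.00, and met rescue peaks of 53.80, 49.09, 31.40 and, for the last pair, 27.79. The 17 unshared wild-type peaks had scores from 20.87 to 113.32, and the 5 unshared rescue peaks from 20.31 to 29.02. Before the Ezh2 site lay 6 wild-type and 5 rescue G9a peaks, and after it 19 and 8.

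Zfp42 had 4 wild-type G9a peaks and 1 rescue peak. The wild-type scores were 30.55, 37.91, 21.64 and 25.86. The third, chr8:44396087-44396534, lay inside the rescue peak chr8:44395947-44396555, which had a score of 26.84. Chromosome 8 as a whole was sparse in the rescue list: the ratio of rescue to wild-type peaks was 0.250 in the window, 0.30 in its block (130 against 433) and 0.261 over the chromosome (1354 against 5186). The Zfp42 ratio was thus close to that of its chromosome, whose part in it was not tested.

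Over the 7 windows, 39 of 68 wild-type G9a peaks (57.4%) overlapped a rescue peak, compared with the 31.9% of all wild-type peaks. In the other direction 42 of 79 rescue peaks (53.2%) overlapped a wild-type peak, compared with 27.2% of all. The chromosome 6 block has a share of 74.0% for its wild-type peaks, which touches Nanog and Dppa3, whose share was 95%. The 5 other windows gave 20 of 48 (41.7%), with 9 of 13 at Pou5f1, 1 of 1 at Klf4, 8 of 25 at Esrrb, 1 of 4 at Zfp42 and 1 of 5 at Sox2. Their blocks had 37.6%, 37.4%, 38.8%, 12.2% and 36.3%. With scores of at least 50 in both lists the share was 33.3% (8 of 24) in the windows and 27.3% over all such peaks, so the contrast was smaller. The rescue to wild-type ratio was 1.16 over the 7 windows and 0.771 over those 5, and it was 1.53 without Esrrb. Its direction also turned, to 0.765 (39 against 51), when peaks within 1 kb of each other were merged. With scores of at least 50 alone it was 0.917, below 1, but that cut keeps fewer of the rescue list. Over all peaks 18496 of wild type reach 50, while a rescue score of 49.54 already stood 11543rd. The 0.917 thus lies above the ratio of all peaks at that cut. With both lists cut to their 5425 strongest peaks the ratio was 3.40 (17 against 5). These lists therefore give no settled direction for the 7 windows as a whole.

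**Figure D4:**
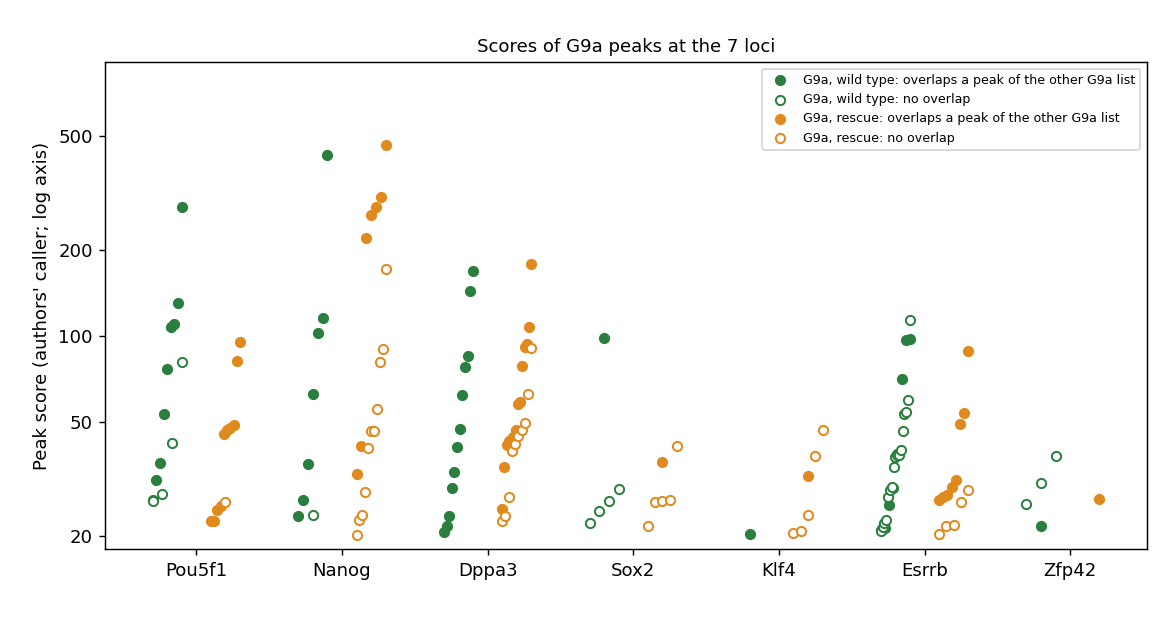
Scores of the authors' peak caller (log axis) for each G9a peak in the 7 windows, wild type in green and rescue in orange; filled points overlap a peak of the other G9a list. The highest are at Nanog (463.03 in the rescue, 428.72 in wild type) and Pou5f1 (282.16 in wild type), and all points at Klf4 and Zfp42 lie below 50.

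The median score of the rescue members was 41.19, against 26.86 for all rescue peaks, and 19 of 79 (24.1%) stood in the list's top 10%. Of those 19, 8 were at Nanog and 8 at Dppa3, whose shared block outside the windows had 24.7% of its rescue peaks in the top 10%. The 5 other windows had 3 of 37 (8.11%), with a median of 27.30. In wild type the median was 36.825 against 31.71, and 9 of 68 (13.2%) stood in the top 10%, 4 of them at Pou5f1 and 4 at Nanog and Dppa3. By which lists had a peak, the loci fell into 3 patterns. Pou5f1, Nanog, Klf4 and Zfp42 had G9a in both lists and no Ezh2, Dppa3 and Sox2 had G9a in both and Ezh2 in library 1, and Esrrb had all 5.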

How the data were processed

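ChIP-seq peak lists of 5 libraries were analysed; 3 input libraries had no peak list here. Cells were fixed with 1% formaldehyde for 10 min, the G9a samples also for 45 min with 2 mM of the protein crosslinker DSG, and libraries had 15 PCR cycles, per the labels' protocols. Bowtie 0.12.7, MACS 1.4 and mm9 are named in the submitters' processing notes. The deposited score of each peak is the authors' own, and MACS defines it as 10 times the negative log10 of p. The lowest scores were 43.02, 30, 43.03, 20 and 20 in Ezh2 libraries 0 and 1, the knockout, wild-type G9a and rescue G9a. The call thresholds, and whether the knockout and rescue lists had a control other than the pooled inputs, are not given in the sources used here.

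Peaks were counted where they overlapped a window by 1 bp, with positions 1-based on mm9, and compared with tiles of equal length over chromosomes 1 to 19 and X, with 10 Mb blocks and with chromosomes. All 7 loci and every Ezh2 peak are named. G9a peaks are all named where a list has up to 5 at a locus. Elsewhere the 3 highest scores are named, with the shared peaks where these come to 10 or fewer, and the rest are given as ranges. A planned count at other pluripotency genes was not run, because it needed an mm9 annotation that was not used here. Chromosome lengths came from GenomeInfoDb 1.38.1, and computations used Python 3.11.15, numpy 2.4.6 and matplotlib 3.10.9. The counting was tested on simulated data. Alternatives were a minimum score, lists of equal length, wider windows, midpoints, merged peaks, other overlaps, and single libraries or loci left out. The members, lists and reference loci were chosen with earlier results of these data known.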

Additional observations from a re-analysis of the deposited data

How the results depend on the processing

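Of 49 alternative values, 23 lay within 1.5 times a reported count or within the 95% binomial (Wilson) interval of a reported share or ratio, 23 lay outside, and 3 turned the direction of a ratio. The intervals cover counting only. They take the peaks of 1 library as separate trials, although adjacent calls lie in clusters. They give no spread between libraries. With windows widened by 20 kb on each side, library 0 had 2 Ezh2 peaks, the loci with peaks of both wild-type libraries became 2 and those with a knockout peak 2, through the site before Pou5f1, and G9a peaks became 106 in wild type and 120 in the rescue. Scores of at least 100 left 2 peaks of Ezh2 library 1, 1 of the knockout, 10 of wild-type G9a and 8 of rescue G9a. Lists cut to the 5425 strongest peaks left 4 of library 1, 5 of wild-type G9a and 17 of rescue G9a. Merging peaks within 1 kb gave 5 in library 1, 1 in the knockout, 51 in wild-type G9a and 39 in the rescue. A common lowest Ezh2 score of 43.03, chosen after seeing the data, left 6 in library 1. Leaving out each wild-type Ezh2 library gave 1 to 3 loci with a wild-type peak. Wild-type G9a peaks overlapped by the rescue came to 69.1% with gaps of up to 1 kb and 33.3% with scores of at least 50. Rescue density at Nanog and Dppa3 was 3.42 times its surroundings within 1 Mb, 2.76 times by covered bases and 2.58 times with scores of at least 50. The rescue to wild-type ratio was 0.771 without Nanog and Dppa3. With scores of at least 50 it was 0.917, above the ratio of all peaks at that cut. Merged peaks gave 0.765, while all peaks of the lists gave 1.25 when merged. With the 5425 strongest of each list the ratio was 3.40. A rescue list as long as the wild-type list, also chosen after seeing the data, as were leaving out Esrrb and the ratios with merged peaks and the strongest peaks, gave a ratio of 1.06. No paired analysis was possible because the groups compared share fewer than 2 replicate numbers and the counts come from no test. Depth is unknown, so a site without a peak may have fallen below a list's call threshold.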
